A study of Homo sapiens with 2 samples.

Results

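The cells described here are the mitotic cells of 4 triple-negative breast cancer lines, MDA-MB-231, HCC38, Hs578T and MDA-MB-436, which lack the hormone receptors and HER2 amplification that define other breast cancers. They were profiled by droplet-based single-cell RNA sequencing together with BT-474 and MDA-MB-453, as cultures between passages 3 and 5 with no treatment named in the labels, each line stained with its own lipid-anchored oligo and mixed into 1 of 2 pools. Pool A held MDA-MB-231 with BT-474 and MDA-MB-453, and pool B held the other lines. The cells were chosen by measured values: within each line they were ranked by a mitotic score, the summed UMIs (unique transcript molecules) of CCNB1, CDC20, PLK1, CENPE, HMMR and ASPM per 10000 gene UMIs. The highest 15% are called high cells and the lowest 50% low cells. The deposited matrix held 17605 barcodes, of which 9016 belonged to the 4 lines and had at least 10000 gene UMIs, at most 20% mitochondrial UMIs and at least 80% of their oligo UMIs from 1 oligo. There were 423 high and 1408 low MDA-MB-231-like cells, 359 high and 1197 low HCC38-like cells, 257 high and 856 low Hs578T-like cells, and 315 high and 1049 low MDA-MB-436-like cells, or 1354 high and 4510 low cells in all.

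Each line was 1 culture in 1 pool. UMIs were therefore summed over the high and over the low cells of a line, scaled to CPM, in which the gene UMIs of a sum add up to 1000000, and compared as a description of these cultures with no test. The 95% intervals given are exact conditional binomial intervals of the ratio of 2 counts and cover counting error only. A summed level does not tell more cells with a transcript from more transcript per cell. The score chose the cells, so every expression ratio below describes cells already picked for mitotic transcripts, and cells late in G2 are not told apart from cells in mitosis.

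Which oligo went with which line is not stated in the labels, so the names rest on marker genes and on the pool composition. The MDA-MB-231-like cells led 4 of their 5 markers, with IL11 at 63.6 CPM, and the fifth, LOX, was highest in Hs578T-like cells. HCC38-like cells led KRT5 (11.2 CPM), SERPINB5, CDH3 and ITGB6 but not KRT17. Hs578T-like cells led all 6 of theirs, among them the mesenchymal factors PRRX1 (208 CPM) and TWIST1 (72.7 CPM). MDA-MB-436-like cells led all 5 of theirs, among them UCHL1 (535.5 CPM), and had RB1 at 4.4 CPM. No barcode was shared within a pool, and at most 5 were shared by any pair of lines across pools. Total UMIs lay between 11.4 M and 15.4 M in high cells and between 33.1 M and 39.5 M in low cells.

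The median score of high cells was 28.9 in MDA-MB-231-like, 28.4 in HCC38-like, 20.6 in Hs578T-like and 20.4 in MDA-MB-436-like cells, and that of low cells 2.16, 1.70, 1.91 and 3.03 in the same order. The score had no gap at either cut in any line. The lowest high cell and the next cell below it stood at 22.32 and 22.25 in MDA-MB-231-like, 21.92 and 21.90 in HCC38-like, 16.33 and 16.31 in Hs578T-like and 16.35 and 16.33 in MDA-MB-436-like cells. At the other end, the highest low cell had a score between 4.52 (Hs578T-like) and 6.30 (MDA-MB-231-like). High cells also held more UMIs. The median number of UMIs per cell was 26297 in high against 24997 in low MDA-MB-231-like cells, 41309 in high against 30588 in low HCC38-like, 41065 in high against 35607.5 in low Hs578T-like and 33681 in high against 29403 in low MDA-MB-436-like cells, which is 1.05, 1.35, 1.15 and 1.15 times the low level. The median mitochondrial share was 5.66% in high against 6.71% in low MDA-MB-231-like cells, 5.58% in high against 5.92% in low HCC38-like, 5.60% in high against 5.97% in low Hs578T-like and 7.06% in high against 7.52% in low MDA-MB-436-like cells. Oligo UMIs per cell, which are not transcripts, differed little, with ratios of high to low medians between 0.955 and 1.03.

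**Figure D1:**
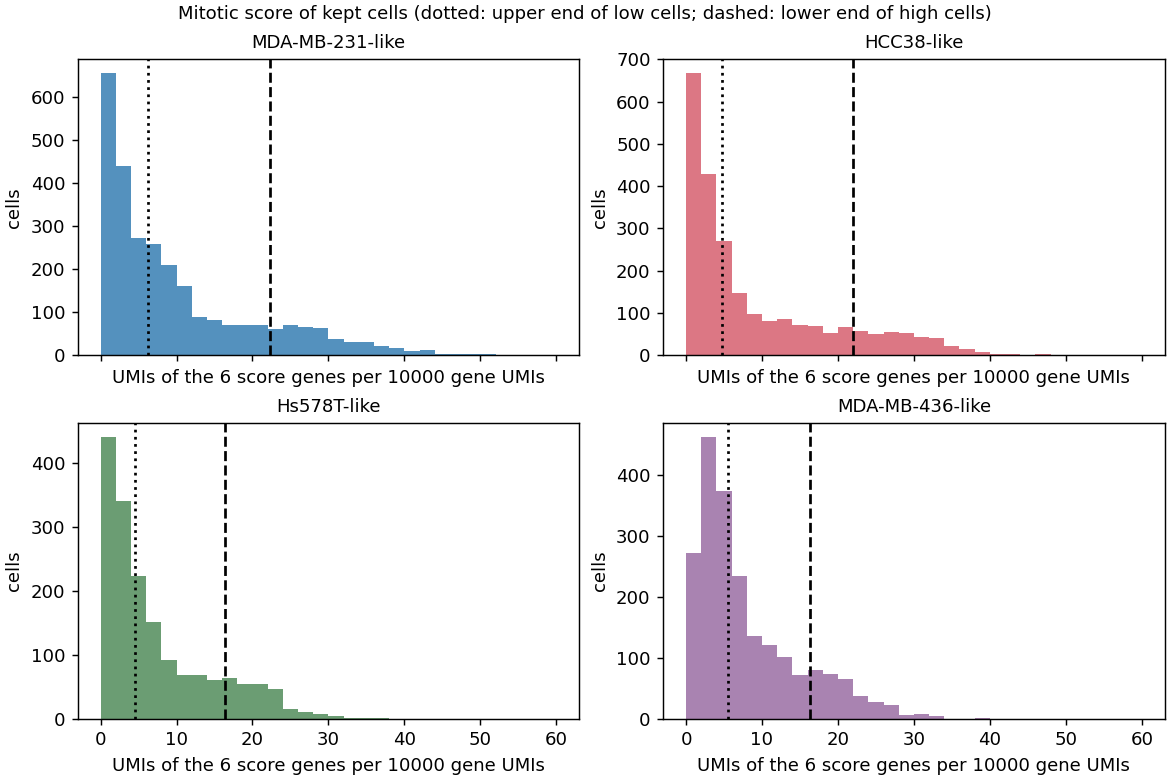
Distribution of the mitotic score (x axis, UMIs of the 6 score genes per 10000 gene UMIs) over kept cells (y axis, number of cells) in each of the 4 lines, in bins of 2. The dashed line is the score of the lowest high cell and the dotted line that of the highest low cell. No distribution has a gap at either line. Around the dashed line the counts are nearly level in MDA-MB-231-like and HCC38-like cells.

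In dividing cells, entry into mitosis is driven by CDK1 bound to cyclin B, helped by the polo and aurora kinases, and exit follows when the anaphase-promoting complex marks cyclin B and securin for destruction. Many of the genes involved are transcribed late in the cycle, through the promoter elements CHR (cell cycle genes homology region) and CCAAT, which are bound by the DREAM and MYB-MuvB complexes with FOXM1 and by NF-Y. Genes that start DNA replication are transcribed earlier, under E2F factors, whose repressor RB1 is lost in MDA-MB-436.

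The score genes are the members by which the cells were chosen. CCNB1, cyclin B1, lies on chromosome 5 from 69167010 to 69178245 (GRCh38, plus strand) and stood at 1140.1 in high against 94.3 CPM in low MDA-MB-231-like, 621 in high against 32.6 CPM in low HCC38-like, 679 in high against 60.9 CPM in low Hs578T-like and 654 in high against 68.2 CPM in low MDA-MB-436-like cells. PLK1, polo-like kinase 1, stood at 201 in high against 14.1 CPM in low MDA-MB-231-like, 421 in high against 15.3 CPM in low HCC38-like, 216 in high against 16.9 CPM in low Hs578T-like and 267 in high against 30.3 CPM in low MDA-MB-436-like cells. ASPM, which focuses spindle poles, stood at 722 in high against 57.7 CPM in low MDA-MB-231-like, 515 in high against 54.7 CPM in low HCC38-like, 457 in high against 42 CPM in low Hs578T-like and 482 in high against 69.3 CPM in low MDA-MB-436-like cells. All 3 marker genes thus differed between high and low cells of every line, as the choice of cells fixes. For the kinetochore motor CENPE, the ratio of high to low CPM ran from 6.41 (MDA-MB-436-like) to 15 (MDA-MB-231-like), for the spindle protein HMMR from 5.88 (MDA-MB-436-like) to 20.5 (HCC38-like), and for CDC20, the activator of the anaphase-promoting complex, from 4.4 (MDA-MB-436-like) to 10.2 (HCC38-like). To remove each gene from its own selection, cells were ranked again by the other 5 genes. The ratio was then lowest for CDC20 in MDA-MB-436-like cells, at 3.55, and highest for PLK1 in HCC38-like cells, at 22.1. With CCNB1 left out, its ratio was 8.99 in MDA-MB-231-like, 15.9 in HCC38-like, 8.18 in Hs578T-like and 6.83 in MDA-MB-436-like cells. All 20 further mitotic markers, such as TOP2A, AURKB and UBE2C, were past 2-fold in all 4 lines, with ratios of CPM + 1 between 2.38 and 17.0.

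The promoters of the 6 score genes show the 2 kinds of element in which late cell cycle genes are rich, and are printed for that reason. The 100 bases before the RefSeq start (GRCh38.p14) are given 5′ to 3′ on the gene's strand, with TTTGAA or TTTAAA, the core of the CHR, and CCAAT, on either strand, in capitals. They lie at chr5:69167050-69167149 (plus strand), chr16:23678789-23678888 (plus), chr1:43358881-43358980 (plus), chr5:163460532-163460631 (plus), chr1:197146670-197146769 (minus) and chr4:103198344-103198443 (minus).
CCNB1: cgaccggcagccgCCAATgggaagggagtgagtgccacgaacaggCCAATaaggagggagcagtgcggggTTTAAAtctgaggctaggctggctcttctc
PLK1: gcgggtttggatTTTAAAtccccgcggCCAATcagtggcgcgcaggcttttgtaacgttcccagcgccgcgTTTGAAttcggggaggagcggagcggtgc
CDC20: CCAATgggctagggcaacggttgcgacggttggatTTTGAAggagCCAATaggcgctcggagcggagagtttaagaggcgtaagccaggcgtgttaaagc
HMMR: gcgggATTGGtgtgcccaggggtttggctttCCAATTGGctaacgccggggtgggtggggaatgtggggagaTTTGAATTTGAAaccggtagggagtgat
ASPM: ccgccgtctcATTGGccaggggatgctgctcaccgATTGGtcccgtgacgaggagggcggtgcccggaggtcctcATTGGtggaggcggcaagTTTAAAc
CENPE: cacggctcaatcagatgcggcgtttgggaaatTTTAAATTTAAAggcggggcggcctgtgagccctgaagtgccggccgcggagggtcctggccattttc
All 6 hold at least 1 TTTGAA or TTTAAA in these bases, and all but CENPE hold a CCAAT. These letters are a match and not a shown binding site.

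Genes changed in all 4 lines were sought among the 6450 genes with a mean of at least 10 CPM over all kept cells of each line, and a gene counts as changed from 2-fold, on the scale of CPM + 1. In high cells, 107 genes were at least 2-fold higher in all 4 lines (1.66% of measured genes), 101 of them outside the score, and 7 were at least 2-fold lower in all 4 (0.109%). The mean of 10 CPM takes in the high cells. Some of the 107, such as KIF20A, PIF1 and CDC25C, were under 10 CPM in low cells of most lines. They passed the filter there only through cells above the low group. Likewise, CCNE2 passed it in MDA-MB-436-like cells only through low cells, with 2.46 CPM in high cells. Single lines had more. The number higher was 160 in MDA-MB-231-like (2.48%), 192 in HCC38-like (2.98%), 158 in Hs578T-like (2.45%) and 121 in MDA-MB-436-like cells (1.88%), and the number lower was 53 (0.822%), 34 (0.527%), 23 (0.357%) and 32 (0.496%) in the same order. The counting interval was past 2-fold in all 4 lines for 99 of the 107 higher and for 5 of the 7 lower genes. The 3 lines of pool B on their own had 107 higher and 9 lower genes among the 6714 genes measured in them. No gene passed 2-fold upwards in 1 line and downwards in another.

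The 107 genes lie on 22 chromosomes, and their median log2 ratio was 2.11 in MDA-MB-231-like, 2.56 in HCC38-like, 2.09 in Hs578T-like and 1.77 in MDA-MB-436-like cells, where the median over all measured genes was within 0.02 of 0 in each line. HCC38-like cells had the largest change of the 4 lines in 89 of the 107 genes and MDA-MB-436-like cells the smallest in 85. HCC38-like cells also had the largest gap in UMIs per cell between high and low cells, and their high and low median scores were the farthest apart as a ratio; the part of either in the size of the changes was not tested. Across the 6450 genes, the log2 ratios of 2 lines correlated with Pearson's r between 0.78 and 0.87, and between 0.57 and 0.76 over the 6336 genes left without the 114 changed in all 4. These are correlations across genes, which are not independent, and all lines share the same score.

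**Figure D2:**
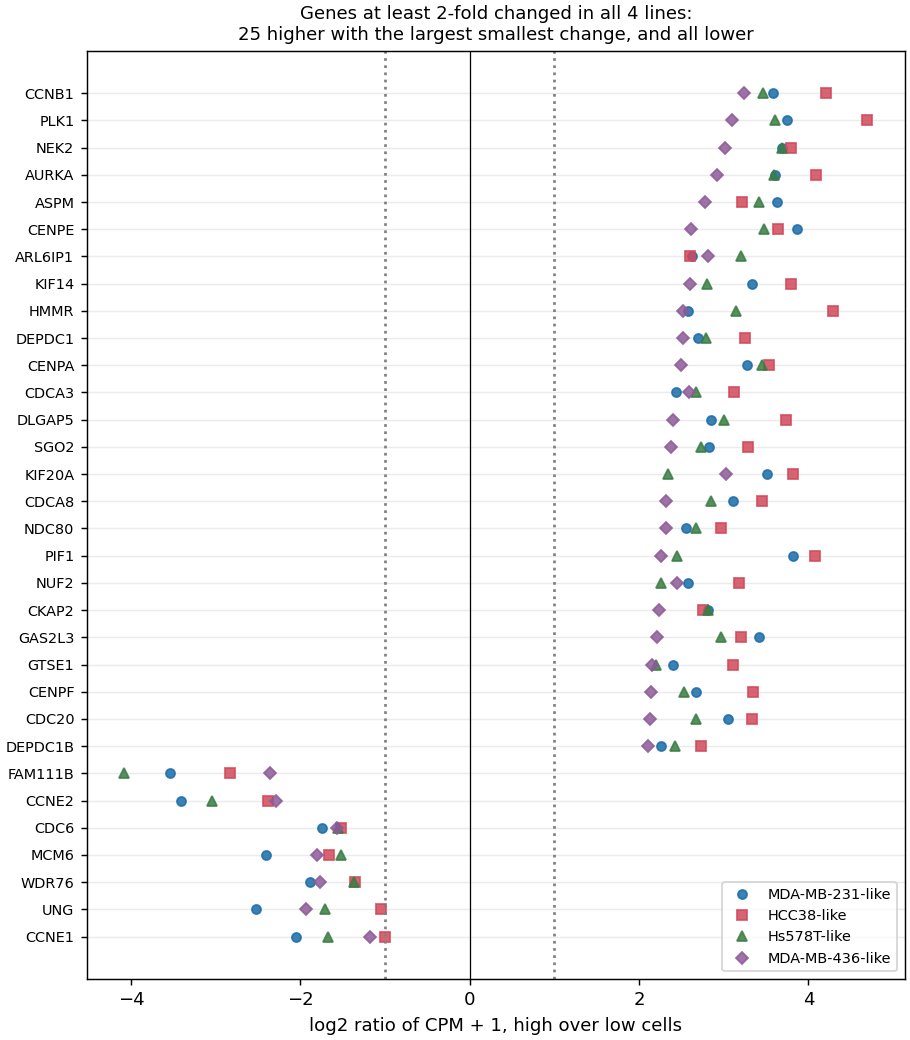
Log2 ratio of CPM + 1 in high over low cells (x axis) for the 25 higher genes with the largest smallest change over the lines and all 7 lower genes (y axis), with 1 symbol per line and dotted lines at 2-fold. The MDA-MB-436-like symbol is often nearest to 0 among the higher genes and the HCC38-like one often farthest.

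The counts of the lists below hold score genes, whose change the choice of cells fixes, and are given without them too. Of 10 measured kinases of mitosis, 9 were at least 2-fold higher in all 4 lines (8 of 9 without PLK1), and the list's median log2 ratio was 2.36 in MDA-MB-231-like, 2.57 in HCC38-like, 2.32 in Hs578T-like and 1.61 in MDA-MB-436-like cells. AURKA, aurora kinase A of the spindle poles (chromosome 20, 56369389 to 56392337, minus strand), stood at 825 in high against 67 CPM in low MDA-MB-231-like, 570.1 in high against 32.6 CPM in low HCC38-like, 478 in high against 38.8 CPM in low Hs578T-like and 448 in high against 58.2 CPM in low MDA-MB-436-like cells. NEK2, which lets centrosomes separate, stood at 166 in high against 11.9 CPM in low MDA-MB-231-like, 167 in high against 11.2 CPM in low HCC38-like, 121 in high against 8.48 CPM in low Hs578T-like and 104 in high against 12 CPM in low MDA-MB-436-like cells. In both genes high cells were at least 7.70 times above low cells in each line. The checkpoint kinase BUB1 had ratios from 3.73 (MDA-MB-436-like) to 10.2 (HCC38-like), and AURKB, of the chromosomal passenger complex, from 2.59 (MDA-MB-436-like) to 5.88 (HCC38-like). MELK was the exception, with log2 ratios of 0.83 in MDA-MB-231-like, 1.32 in HCC38-like, 1.08 in Hs578T-like and 0.30 in MDA-MB-436-like cells.

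Of 18 measured genes for cyclin-CDK1 and its regulators, 9 were at least 2-fold higher in all 4 lines (8 of 17 without CCNB1) and none at least 2-fold lower in any, with medians of 1.44 in MDA-MB-231-like, 1.93 in HCC38-like, 1.43 in Hs578T-like and 0.97 in MDA-MB-436-like cells. CDC25C, a phosphatase that activates CDK1, stood at 54.4 in high against 6.88 CPM in low MDA-MB-231-like, 83.6 in high against 5.19 CPM in low HCC38-like, 55.7 in high against 7.21 CPM in low Hs578T-like and 29.2 in high against 7.17 CPM in low MDA-MB-436-like cells. CCNB2, cyclin B2, had ratios from 3.58 (MDA-MB-436-like) to 11.3 (HCC38-like). CDK1 itself differed less than CCNA2, CCNB1 or CCNB2 in each line, at 267 in high against 80.6 CPM in low MDA-MB-231-like, 515 in high against 98.7 CPM in low HCC38-like, 177 in high against 49.8 CPM in low Hs578T-like and 214 in high against 82.4 CPM in low MDA-MB-436-like cells. MASTL, the kinase that restrains the phosphatase opposing CDK1, was at log2 ratios of -0.68 in MDA-MB-231-like, -0.11 in HCC38-like, -0.21 in Hs578T-like and -0.59 in MDA-MB-436-like cells, and its substrate ENSA was between -0.07 and 0.06. Of 15 measured genes of the anaphase-promoting complex and its substrates, the 6 higher in all 4 lines were the activator CDC20, the ubiquitin-conjugating enzymes UBE2C and UBE2S, the cohesin protectors SGO1 and SGO2, and securin, PTTG1. Without CDC20 they were 5 of 14. UBE2C stood at 855 in high against 134 CPM in low MDA-MB-231-like, 1042 in high against 92.3 CPM in low HCC38-like, 438 in high against 56.9 CPM in low Hs578T-like and 513 in high against 132 CPM in low MDA-MB-436-like cells. No core subunit reached 2-fold in all 4 lines. ANAPC11 was at log2 ratios of -0.04 in MDA-MB-231-like, 0.03 in HCC38-like, -0.05 in Hs578T-like and -0.02 in MDA-MB-436-like cells, and CDC27, the core subunit with the largest median change, at 0.99 in MDA-MB-231-like, 1.05 in HCC38-like, 1.06 in Hs578T-like and 0.93 in MDA-MB-436-like cells.

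At the kinetochore, which ties chromosomes to microtubules, 16 of 29 measured genes were at least 2-fold higher in all 4 lines (15 of 28 without CENPE). CENPA, the histone H3 variant that marks centromeres, stood at 149 in high against 14.5 CPM in low MDA-MB-231-like, 131 in high against 10.4 CPM in low HCC38-like, 189 in high against 16.3 CPM in low Hs578T-like and 61.1 in high against 10.00 CPM in low MDA-MB-436-like cells. The NDC80 complex subunits that grip microtubules had ratios from 5.25 (MDA-MB-436-like) to 8.15 (HCC38-like) for NDC80 and from 4.9 (Hs578T-like) to 9.37 (HCC38-like) for NUF2. CENPF, an outer kinetochore protein and among the most abundant of these transcripts, stood at 1787 in high against 279.7 CPM in low MDA-MB-231-like, 1047 in high against 102 CPM in low HCC38-like, 923 in high against 158 CPM in low Hs578T-like and 1089 in high against 246 CPM in low MDA-MB-436-like cells. CDCA8, or borealin of the passenger complex, had ratios from 5.12 (MDA-MB-436-like) to 11.4 (HCC38-like), and SGO2 from 5.28 (MDA-MB-436-like) to 10.1 (HCC38-like). At the other end of the list, CENPH had log2 ratios of -0.11 in MDA-MB-231-like, 0.38 in HCC38-like, 0.57 in Hs578T-like and 0.36 in MDA-MB-436-like cells, and DSN1 of the MIS12 complex was below 0 in every line, at -0.82 in MDA-MB-231-like, -0.21 in HCC38-like, -0.41 in Hs578T-like and -0.89 in MDA-MB-436-like cells. CENPA overlaps SLC35F6 on the same strand, and reads in the overlap cannot be assigned to either.

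Kinesins, the motors that move along microtubules, were higher in all 4 lines for 10 of 12 measured genes. KIF20A, needed to bring the passenger complex to the midzone, stood at 124 in high against 9.96 CPM in low MDA-MB-231-like, 116 in high against 7.27 CPM in low HCC38-like, 98.7 in high against 18.6 CPM in low Hs578T-like and 59 in high against 6.34 CPM in low MDA-MB-436-like cells. KIF14, a midbody motor, had ratios from 6.25 (MDA-MB-436-like) to 15.4 (HCC38-like), and KIF2C, a microtubule depolymerase, from 4.2 (MDA-MB-436-like) to 9.65 (HCC38-like). The exceptions were KIF22, at log2 ratios of 1.15 in MDA-MB-231-like, 1.55 in HCC38-like, 1.36 in Hs578T-like and 0.56 in MDA-MB-436-like cells, and KIF5B, the conventional cargo kinesin of the cytoplasm, at 1.02 in MDA-MB-231-like, 0.78 in HCC38-like, 0.88 in Hs578T-like and 0.68 in MDA-MB-436-like cells. KIF20A overlaps BRD8 and CDC23 on the other strand, and BRD8 is itself among the 107.

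Among 29 measured genes of the spindle and of cytokinesis, 20 were higher in all 4 lines (18 of 27 without ASPM and HMMR). PIF1, a DNA helicase, stood at 37.4 in high against 1.73 CPM in low MDA-MB-231-like, 90.9 in high against 4.43 CPM in low HCC38-like, 41.1 in high against 6.73 CPM in low Hs578T-like and 67.9 in high against 13.4 CPM in low MDA-MB-436-like cells, so that its ratio rests on low levels in low cells and ran from 5.08 (MDA-MB-436-like) to 21.6 (MDA-MB-231-like). DLGAP5, a spindle assembly protein, stood at 693 in high against 95.1 CPM in low MDA-MB-231-like, 497 in high against 36.5 CPM in low HCC38-like, 319.9 in high against 39.1 CPM in low Hs578T-like and 169.7 in high against 31.4 CPM in low MDA-MB-436-like cells. For the microtubule-associated CKAP2 the ratio ran from 4.78 (MDA-MB-436-like) to 7.19 (Hs578T-like). No tubulin gene reached 2-fold in all 4 lines, though TUBA1C and TUBB4B did in 3. TUBA1B was at log2 ratios of 0.31 in MDA-MB-231-like, 0.64 in HCC38-like, 0.37 in Hs578T-like and 0.13 in MDA-MB-436-like cells, and TUBA1A at -0.40 in MDA-MB-231-like, -0.34 in HCC38-like, -0.20 in Hs578T-like and 0.18 in MDA-MB-436-like cells. For chromosome condensation and the nuclear envelope, 8 of 24 genes were higher in all 4 lines. TOP2A, the topoisomerase that untangles sister chromosomes, stood at 1541 in high against 259.6 CPM in low MDA-MB-231-like, 1694 in high against 149 CPM in low HCC38-like, 813 in high against 128 CPM in low Hs578T-like and 361 in high against 101 CPM in low MDA-MB-436-like cells. MKI67, the surface coat of mitotic chromosomes, had ratios from 4.18 (MDA-MB-436-like) to 5.86 (HCC38-like), whereas LMNA, the A-type lamin, was at log2 ratios of 0.18 in MDA-MB-231-like, 0.03 in HCC38-like, 0.17 in Hs578T-like and 0.38 in MDA-MB-436-like cells.

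Further genes among the 25 with the largest smallest change have other or less settled roles. ARL6IP1, a membrane protein that shapes the endoplasmic reticulum and was counted on the spindle list, stood at 869 in high against 139 CPM in low MDA-MB-231-like, 1982 in high against 326 CPM in low HCC38-like, 582 in high against 62.4 CPM in low Hs578T-like and 859 in high against 121 CPM in low MDA-MB-436-like cells. It was the only 1 of the 25 whose smallest ratio was in HCC38-like cells. DEPDC1 had ratios from 5.82 (MDA-MB-436-like) to 9.88 (HCC38-like), DEPDC1B from 4.86 (MDA-MB-436-like) to 7.4 (HCC38-like), CDCA3 from 5.54 (MDA-MB-231-like) to 9.14 (HCC38-like), the actin and microtubule linker GAS2L3 from 4.95 (MDA-MB-436-like) to 11.8 (MDA-MB-231-like) and GTSE1, a microtubule-binding protein that also binds p53, from 4.54 (MDA-MB-436-like) to 8.81 (HCC38-like). CDKN2D, an inhibitor of the G1 kinases CDK4 and CDK6, was also among the 107, at 153 in high against 39 CPM in low MDA-MB-231-like, 67 in high against 12.3 CPM in low HCC38-like, 98.1 in high against 29.4 CPM in low Hs578T-like and 41.1 in high against 9.57 CPM in low MDA-MB-436-like cells. It was 1 of 2 genes of the list of G1 cyclins and CDK inhibitors higher in all 4 lines, the other being the phosphatase CDKN3. CCND1, cyclin D1, differed little, with log2 ratios of 0.25 in MDA-MB-231-like, 0.33 in HCC38-like, 0.16 in Hs578T-like and -0.01 in MDA-MB-436-like cells.

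The 7 genes lower in all 4 lines are CCNE1 and CCNE2, the E-type cyclins that start S phase, CDC6 and MCM6, which license replication origins, UNG, which removes uracil from DNA, the protease FAM111B and the WD-repeat gene WDR76. CCNE2 stood at 4.74 in high against 60.2 CPM in low MDA-MB-231-like, 7.22 in high against 41.9 CPM in low HCC38-like, 5.08 in high against 49.1 CPM in low Hs578T-like and 2.46 in high against 15.8 CPM in low MDA-MB-436-like cells. FAM111B stood at 7.15 in high against 93.7 CPM in low MDA-MB-231-like, 11.6 in high against 89 CPM in low HCC38-like, 1.98 in high against 49.4 CPM in low Hs578T-like and 8.25 in high against 46.4 CPM in low MDA-MB-436-like cells. Their ratios were the lowest of the 7 in every line, between 0.0401 and 0.178. MCM6, a subunit of the replicative helicase, stood at 14.7 in high against 82.5 CPM in low MDA-MB-231-like, 29.3 in high against 94.9 CPM in low HCC38-like, 15.3 in high against 45.8 CPM in low Hs578T-like and 12.5 in high against 45.8 CPM in low MDA-MB-436-like cells, and CDC6 at 27.2 in high against 93.6 CPM in low MDA-MB-231-like, 27.8 in high against 81.5 CPM in low HCC38-like, 18.9 in high against 57.5 CPM in low Hs578T-like and 20.4 in high against 62.3 CPM in low MDA-MB-436-like cells. For the others the ratio ran from 0.253 (MDA-MB-231-like) to 0.366 (Hs578T-like) for WDR76, from 0.163 (MDA-MB-231-like) to 0.476 (HCC38-like) for UNG and from 0.215 (MDA-MB-231-like) to 0.481 (HCC38-like) for CCNE1. CCNE2 overlaps INTS8 and NDUFAF6 on the other strand.

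The 160 bases before the MCM6 start (chr2:135876444-135876603, minus strand) are printed as a contrast to the score genes, with CCAAT and the E2F-type letters TTTGGCGC and TTTCGCGC in capitals, each on either strand.
MCM6: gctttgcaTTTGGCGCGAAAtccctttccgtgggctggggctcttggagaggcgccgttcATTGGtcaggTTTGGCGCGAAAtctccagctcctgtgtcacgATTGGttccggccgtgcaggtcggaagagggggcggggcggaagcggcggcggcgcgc
The run TTTGGCGCGAAA occurs at 2 places, and no TTTGAA or TTTAAA is present. RefSeq promoter windows, from 250 bases before to 50 after the start, were at hand for 91 of the 107 higher genes, 4 of the 7 lower genes and 5338 of all 6450 measured genes. TTTGAA or TTTAAA was present on either strand in 69 of the 91 higher genes (75.8%), against 21.1% of all measured genes. CCAAT was present in 69 of the 91 (75.8%), against 44.01%, and both in 52 (57.1%), against 9.12%. Among the 4 lower genes, 3 held CCAAT and 2 held TTTGAA or TTTAAA in the same window. Nearer to the start, from 100 bases before to 50 after, TTTGAA or TTTAAA was in 67.0% of the higher genes and in 9.78% of all. The E2F-type letters TTTCCCGC, TTTGGCGC, TTTCGCGC or TTTGCCGC were in 3 of the 4 lower genes, in 6 of the 91 higher genes (6.59%) and in 7.98% of all. The motifs overlap one another in some promoters, and no match says only that these letters are not in the window.

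Of the 7 lower genes, 5 were on the list of G1/S and DNA replication genes, and FAM111B and WDR76 were not. Of 45 measured genes of that list, 23 were at least 2-fold lower in MDA-MB-231-like, 6 in HCC38-like, 7 in Hs578T-like and 18 in MDA-MB-436-like cells, and 5 were so in all 4. The list's median log2 ratio was -1.02 in MDA-MB-231-like, -0.56 in HCC38-like, -0.48 in Hs578T-like and -0.87 in MDA-MB-436-like cells. E2F1 stood at 16.2 in high against 64.5 CPM in low MDA-MB-231-like, 32.3 in high against 61.7 CPM in low HCC38-like, 15.1 in high against 35.2 CPM in low Hs578T-like and 9.74 in high against 39.5 CPM in low MDA-MB-436-like cells, just short of 2-fold in HCC38-like cells alone. RRM2, a subunit of the enzyme that makes deoxynucleotides, was the only gene of the list at least 2-fold higher in any line, in Hs578T-like cells, at 321 CPM in high against 156 CPM in low cells. TYMS, thymidylate synthase, was at log2 ratios of 0.05 in MDA-MB-231-like, 0.58 in HCC38-like, 0.32 in Hs578T-like and -0.15 in MDA-MB-436-like cells.

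Histone genes were measured for 12 of 22 matched members, and at least 2-fold lower in high cells were 1 in MDA-MB-231-like, 1 in HCC38-like, 5 in Hs578T-like and 5 in MDA-MB-436-like cells. The share of all measured genes was 0.822%, 0.527%, 0.357% and 0.496% in the same order. The list's median log2 ratio was -0.12, 0.39, -0.18 and -0.09. HIST1H4C stood at 322 in high against 594 CPM in low MDA-MB-231-like, 263 in high against 424 CPM in low HCC38-like, 334 in high against 1072 CPM in low Hs578T-like and 216 in high against 1022 CPM in low MDA-MB-436-like cells, and HIST1H1E at 67.3 in high against 118 CPM in low MDA-MB-231-like, 11.3 in high against 23.9 CPM in low HCC38-like, 30.3 in high against 92 CPM in low Hs578T-like and 13 in high against 51.9 CPM in low MDA-MB-436-like cells. In HCC38-like cells, log2 ratios were 0.50 for HIST1H1C, 0.89 for HIST1H2AC and, outside the list, -0.83 for HIST2H2AC, and the linker histone gene H1FX was at least 2-fold higher there alone, at 1.04. The replacement histone gene H3F3B, which is made in all phases, had log2 ratios above 0 in each line, at 0.63 in MDA-MB-231-like, 0.58 in HCC38-like, 0.71 in Hs578T-like and 0.29 in MDA-MB-436-like cells. The mRNAs of S-phase histones mostly lack the poly(A) tail that this assay captures, and their near-identical copies share sequence, so these levels are uncertain.

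Cells were also binned along the whole score rank, cut at ranks of 50%, 70%, 85% and 95% of each line. CCNE2 was highest in the lowest cells and lower in each following bin, at 60.2, 32.9, 11.8, 5.55 and 3.14 CPM in MDA-MB-231-like cells. HIST1H4C was highest in the 50% to 70% bin in all 4 lines, at 1595 CPM in MDA-MB-231-like, 1127 CPM in HCC38-like, 2139 CPM in Hs578T-like and 1148 CPM in MDA-MB-436-like cells. TYMS also had its highest level in that bin in all 4 lines. Other replication genes had close levels in the lowest bin and the 50% to 70% bin in some lines. PCNA, the sliding clamp of DNA polymerases, was at 126 and 124 CPM in these bins in MDA-MB-231-like cells. It was at 119 and 121 CPM in Hs578T-like, 269 and 295 CPM in HCC38-like and 91.6 and 71.2 CPM in MDA-MB-436-like cells. FAM111B was at 89.0 and 93.1 CPM in HCC38-like cells and was highest in the lowest bin in the other 3 lines. TOP2A, CCNA2, AURKA, CENPA, KIF20A and ARL6IP1, none of them in the score, were highest in the top 5% of cells in all 4 lines. DKK1, a secreted inhibitor of Wnt signalling, was lowest in the top bin in each line, at 502, 353, 274, 128 and 81.0 CPM over the bins in MDA-MB-231-like cells and at 772, 670.3, 619, 391 and 293 CPM in HCC38-like cells. In Hs578T-like cells it was highest in the second bin, at 74.4, 95.7, 59.7, 52.7 and 32.5 CPM, and in MDA-MB-436-like cells it was at 92.2, 90.6, 75.6, 63.5 and 52.2 CPM. CCND1 stayed between 529 and 641 CPM in MDA-MB-231-like cells.

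**Figure D3:**
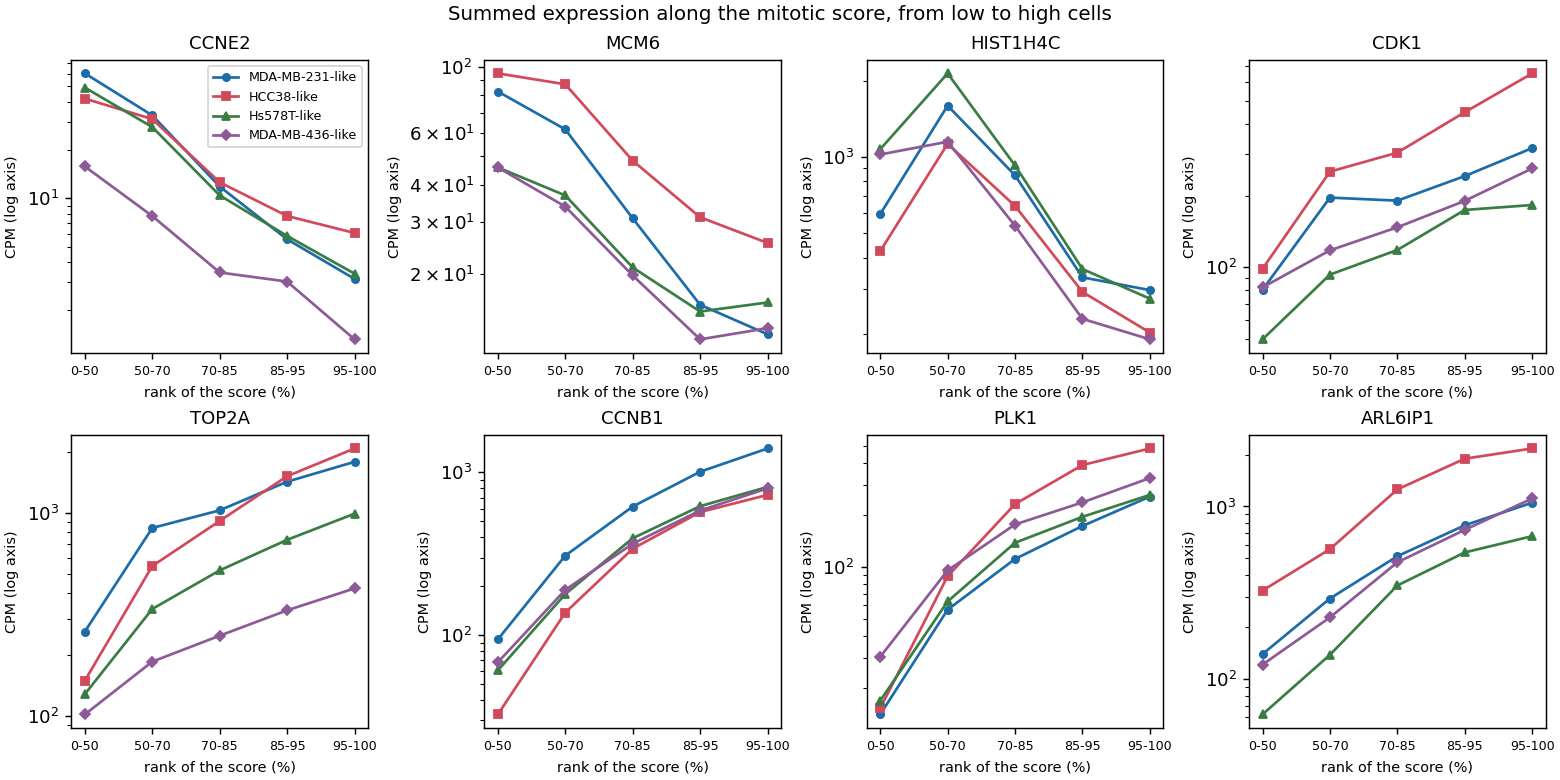
Summed level (y axis, CPM, log axis) of 8 genes in 5 bins of the score rank within each line (x axis, percent, low to high), with 1 line and symbol per cell line. CCNE2 and MCM6 are highest in the lowest bin, HIST1H4C in the second bin, and CDK1, TOP2A, CCNB1, PLK1 and ARL6IP1 in the top bin.

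Outside the cycle, most lists stayed near the all-gene median. Heat shock chaperone genes had medians of 0.32 in MDA-MB-231-like, 0.15 in HCC38-like, 0.47 in Hs578T-like and 0.21 in MDA-MB-436-like cells, with DNAJB1 at log2 ratios of 0.78 in MDA-MB-231-like, 0.41 in HCC38-like, 0.62 in Hs578T-like and 0.47 in MDA-MB-436-like cells. Only HSPA1A in MDA-MB-231-like cells reached 2-fold among the 15 measured. Targets of YAP and TGF-beta had medians between -0.39 and -0.26. CCN2, a matrix protein gene of that list, stood at 67.9 in high against 136 CPM in low MDA-MB-231-like, 29.2 in high against 86 CPM in low HCC38-like, 79.9 in high against 308 CPM in low Hs578T-like and 11.6 in high against 16.1 CPM in low MDA-MB-436-like cells, with a ratio from 0.26 (Hs578T-like) to 0.717 (MDA-MB-436-like). Cholesterol synthesis genes had medians of -0.08 in MDA-MB-231-like, -0.48 in HCC38-like, -0.45 in Hs578T-like and -0.07 in MDA-MB-436-like cells. HMGCS1, an early enzyme of that route, was at log2 ratios of 0.02 in MDA-MB-231-like, -1.04 in HCC38-like, -1.31 in Hs578T-like and -0.15 in MDA-MB-436-like cells. Immediate early genes had their lowest median, -0.59, in HCC38-like cells, and between -0.18 and 0.15 elsewhere. FOSL1, also on that list, was above 0 in every line, at log2 ratios of 0.78 in MDA-MB-231-like, 1.11 in HCC38-like, 0.46 in Hs578T-like and 0.34 in MDA-MB-436-like cells. Lists of interferon and MHC class I genes, metallothioneins and NRF2 targets, and hypoxia had medians between -0.19 and 0.11, the unfolded protein response between -0.33 and -0.13, and the 2 measured NF-kB genes, NFKBIA and BIRC3, between -0.87 and -0.28. In the list of genes that split subclusters in earlier results, 5 of 16 were measured, and ITGA2, HLA-B, CD59 and LY6E were all under 2-fold in each line, with AKR1C1 described below. None of 14 marker genes of immune, endothelial or fibroblast cells reached 10 CPM in all lines. The 78 ribosomal protein genes had medians between -0.18 and -0.05.

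**Figure D4:**
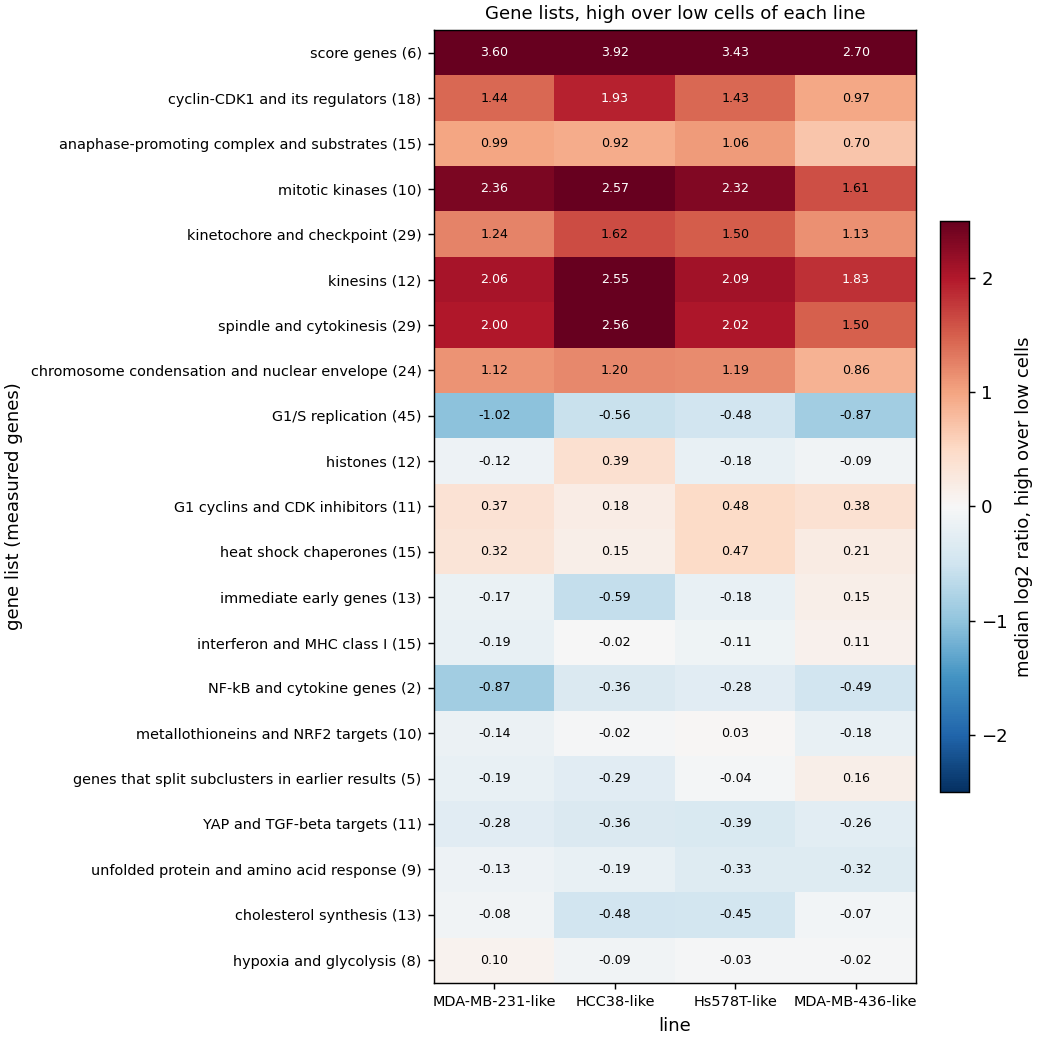
Median log2 ratio of high over low cells (colour and printed value) for each gene list (rows, with the number of measured genes) in each line (columns). The 7 lists of mitosis genes under the score genes are all positive, the list of G1/S replication genes is negative in all 4 lines, and the others lie between -0.87 and 0.48.

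Genes changed in 1 line only were counted in 2 ways. Under a strict rule, at least 2-fold in 1 line and within 0.32 of 0 on the log2 scale in each of the other 3, there were 5, all in HCC38-like cells. Under a loose rule, at least 2-fold in 1 line and under 2-fold in the other 3, there were 100, 53 higher and 47 lower. MDA-MB-231-like cells had 7 higher (0.109% of measured genes) and 22 lower (0.341%), HCC38-like cells 36 higher (0.558%) and 17 lower (0.264%), Hs578T-like cells 7 higher (0.109%) and 5 lower (0.0775%), and MDA-MB-436-like cells 3 higher and 3 lower (0.0465% each). Of the 100, 86 had a ratio in the same direction in all other lines, and 48 were also past 0.32 on the log2 scale the same way in all of them. The counting interval of the line lay beyond those of the other 3 lines for 65. The same direction in all lines held for 50 of the 53 higher and 36 of the 47 lower genes. It held for 11 of the 17 lower genes of HCC38-like cells, of which 4 were past 0.32. The share of all measured genes with 1 direction in all 4 lines was not counted. The counts of 86 and 48 are therefore not a trait shown for these genes.

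In HCC38-like cells, AKR1C1, an aldo-keto reductase of the NRF2 response, had the lowest ratio of the strict genes. It stood at 13.7 in high against 16.5 CPM in low MDA-MB-231-like, 134 in high against 499 CPM in low HCC38-like, 356 in high against 349 CPM in low Hs578T-like and 91.2 in high against 81 CPM in low MDA-MB-436-like cells, with a ratio of 0.268 (95% interval 0.256 to 0.281) in HCC38-like cells. SOX4, a developmental transcription factor, stood at 25.6 in high against 24.9 CPM in low MDA-MB-231-like, 74.4 in high against 249 CPM in low HCC38-like, 144 in high against 147 CPM in low Hs578T-like and 36.3 in high against 32.5 CPM in low MDA-MB-436-like cells, and the HCC38-like ratio was 0.298 (95% interval 0.28 to 0.317). FOS, an immediate early gene, stood at 175 in high against 198 CPM in low MDA-MB-231-like, 71.1 in high against 168 CPM in low HCC38-like, 46.5 in high against 52.8 CPM in low Hs578T-like and 33.8 in high against 29.2 CPM in low MDA-MB-436-like cells. Only the HCC38-like levels differed by 2-fold in these 3 genes. Over the bins of the score rank, AKR1C1 was at 499, 211, 149, 113 and 177 CPM in HCC38-like cells. SOX4 was at 249, 115, 137, 82.9 and 56.5 CPM there, and FOS was lower in each following bin. All 3 were thus already lower in the 50% to 70% bin, below the high cells. AKR1C1 was higher again in the top bin than in the bin before it. Their differences from low cells are therefore not shown to be a trait of high HCC38-like cells alone. CSF1, a macrophage growth factor gene, had 7.42 CPM in high against 16.4 CPM in low cells there, and C21orf58, the 1 strict gene that was higher, had 37.9 CPM in high against 16 CPM in low cells. The gap in UMIs per cell was largest in this line. With low cells matched to high cells on total UMIs, the log2 ratios in HCC38-like cells were -1.35 for AKR1C1, -1.67 for SOX4, -1.05 for FOS, -0.92 for CSF1 and 1.04 for C21orf58. AKR1C1 and AKR1C2 are near-identical, so their reads may be split between them.

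Among the loose genes of HCC38-like cells, the higher ones named for their distance to the other lines were CALM2, a calmodulin gene, with 1960.3 CPM in high against 789.6 CPM in low cells and ratios of 1.55 in MDA-MB-231-like, 1.6 in Hs578T-like and 1.39 in MDA-MB-436-like cells, FAM216A, the centrosomal gene CDK5RAP2, EXOSC6 and the formin DIAPH3. DIAPH3 had 51.1 CPM in high against 18.1 CPM in low cells and ratios of 1.84 in MDA-MB-231-like, 1.9 in Hs578T-like and 1.64 in MDA-MB-436-like cells, so it was above 1 in every line. Among the lower ones, JUN, a partner of FOS, had 22.6 CPM in high against 48.4 CPM in low cells and ratios of 0.841 in MDA-MB-231-like, 0.743 in Hs578T-like and 1.13 in MDA-MB-436-like cells. FAM216A overlaps the expressed gene GPN3 on the other strand.

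In MDA-MB-231-like cells, VEGFA, an angiogenic growth factor gene, had 106 CPM in high against 51.2 CPM in low cells and ratios of 0.831 in HCC38-like, 1.3 in Hs578T-like and 0.982 in MDA-MB-436-like cells. HSPA1A, an inducible chaperone, had 36.2 CPM in high against 17.1 CPM in low cells, but its near-identical copy HSPA1B shares reads with it. The other higher genes named for this line, PILRB, RTKN2, WSB1 and AKIRIN2, had ratios between 2.19 and 2.47. IFIT3, an interferon-stimulated gene, was lower in this line alone and above 1 in the others: it had 46.1 CPM in high against 98.2 CPM in low cells, and ratios of 1.09 in HCC38-like, 1.26 in Hs578T-like and 1.68 in MDA-MB-436-like cells. DAAM1, a formin-family regulator of actin, had 55 CPM in high against 132 CPM in low cells. The replication genes PRIM1, a primase subunit, and POLA2, of DNA polymerase alpha, had ratios of 0.326 and 0.417 in this line and between 0.523 and 0.853 in the others, and the repair gene ERCC6 and the myosin MYO19 were at 0.481 and 0.478. This is the 1 line of pool A, so line and pool cannot be told apart here. IFIT3, PRIM1 and MYO19 each overlap another expressed gene.

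In Hs578T-like cells, 7 genes were higher under the loose rule. Those named for their distance to the other lines were RRM2, described above, the microRNA-processing cofactor TARBP2, the B-type lamin LMNB2, the decapping enzyme DCP2, the noncoding RNA GIHCG and RASSF1. TARBP2 had 27.7 CPM in high against 12.6 CPM in low cells and ratios of 1.11 in MDA-MB-231-like, 1.42 in HCC38-like and 1.12 in MDA-MB-436-like cells. RASSF1 shows how near the rule lies to a shared change, with ratios of 2.13 in Hs578T-like and 2.01 in MDA-MB-231-like cells, the latter 1.95 on the scale of CPM + 1. The 5 lower genes were FBXO32, a ubiquitin ligase subunit, SYNGR2, STK38L, the Notch-pathway gene HES4 and INSIG1, a sensor of sterols. FBXO32 had 38.9 CPM in high against 98.4 CPM in low cells and ratios of 0.607 in MDA-MB-231-like, 0.533 in HCC38-like and 0.579 in MDA-MB-436-like cells, and SYNGR2 had 10.4 CPM in high against 23.5 CPM in low cells and ratios of 0.873 in MDA-MB-231-like, 0.775 in HCC38-like and 1.03 in MDA-MB-436-like cells. LMNB2 and GIHCG each overlap another expressed gene.

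In MDA-MB-436-like cells, 6 genes met the loose rule. LMO7, an adhesion and nuclear envelope protein, had 31.6 CPM in high against 9.49 CPM in low cells, a ratio of 3.33 (95% interval 2.86 to 3.87), and ratios of 1.49 in MDA-MB-231-like, 1.43 in HCC38-like and 1.05 in Hs578T-like cells. The kinase STK17B and the chromatin factor ATF7IP were higher, at ratios of 2.3 and 2.34. HIST2H2AC, an S-phase histone gene, had 27.2 CPM in high against 112 CPM in low cells and ratios of 0.498 in MDA-MB-231-like, 0.537 in HCC38-like and 0.513 in Hs578T-like cells, so that it lay at the edge of the 2-fold threshold, which is set on CPM + 1, in the other lines. RBL1, the RB1 relative p107, had 6.58 CPM in high against 15.2 CPM in low cells, and FIGNL1, a repair gene, 9.48 CPM in high against 21.4 CPM in low cells. LMO7 overlaps the expressed gene LMO7-AS1 on the other strand.

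**Figure D5:**
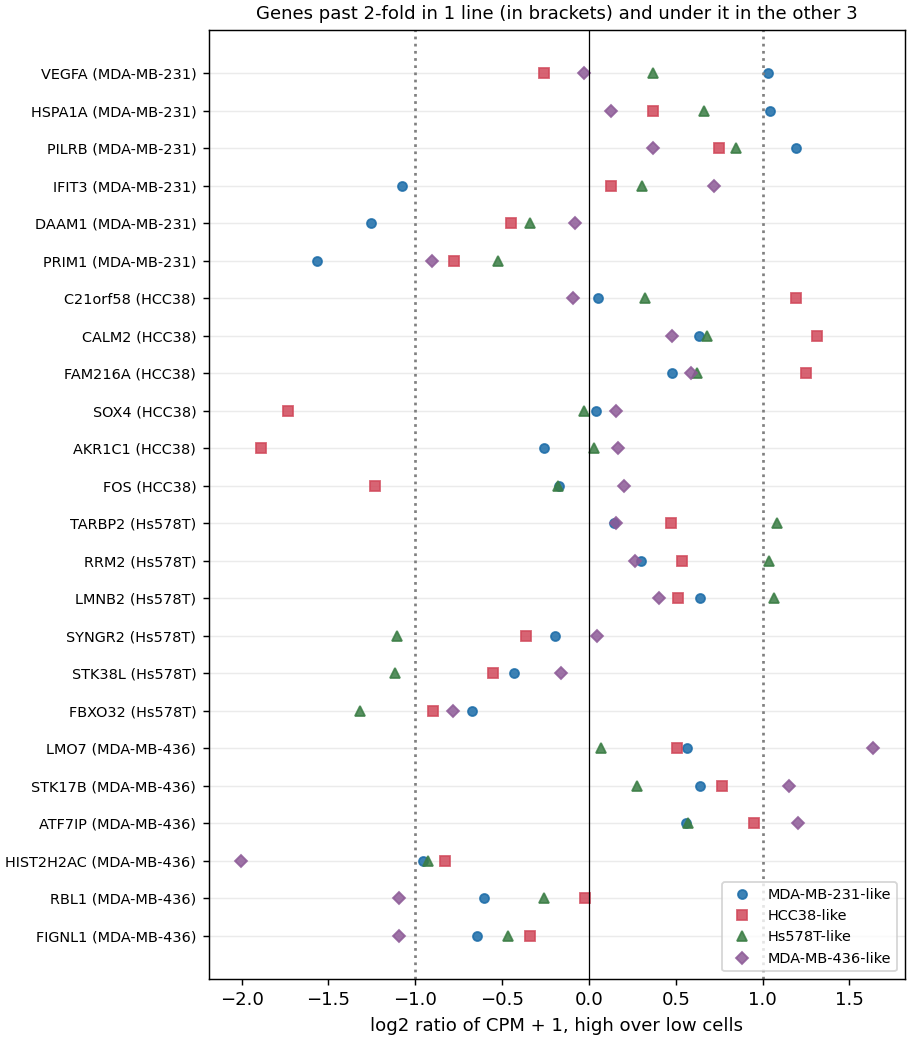
Log2 ratio of CPM + 1 in high over low cells (x axis) for up to 3 higher and 3 lower genes of the loose rule per line (y axis, with the line that passed 2-fold in brackets), with 1 symbol per line and dotted lines at 2-fold. For AKR1C1, SOX4 and FOS only the HCC38-like symbol leaves the region near 0, whereas for LMNB2 or PRIM1 all 4 symbols lie on the same side.

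Genes measured in 1 line alone fall outside that count, since they had under 10 CPM in the other 3, and were looked at after the first results. HCC38-like cells had 597 such genes, 16 of them higher by 2-fold or more (2.68%) and 32 lower (5.36%), beside 2.98% and 0.527% of the genes measured in all 4 lines. Some such genes passed 10 CPM only through 1 end of the score. DHRS2 was at 5.44 CPM in low and IVL at 4.49 CPM in high HCC38-like cells. The shares given here for each line are therefore not a trait shown for genes measured in 1 line alone. CCNB3, a B-type cyclin known mainly from meiosis, was at 35.1 CPM in high against 0.81 CPM in low HCC38-like cells, from 539 and 32 UMIs, a ratio of 43.3 (95% interval 30.3 to 63.9). Its mean was at most 2.23 CPM in any other of the 4 lines. Over the bins of the score rank, CCNB3 was at 0.81, 3.76, 16.8, 30.0 and 45.8 CPM in HCC38-like cells. It thus passed the filter of 10 CPM only through cells of higher score, where it is high. HIST1H2BJ was at 660 CPM in high against 142 CPM in low cells. KRT16, a keratin of activated epithelia, was at 13.6 CPM in high against 99.8 CPM in low HCC38-like cells. Over the bins it was at 99.8, 41.8, 20.5, 12.7 and 15.4 CPM there, so it was already lower below the high cells. In Hs578T-like cells, where its levels were far lower, it was at 1.24 CPM and 3.11 CPM in the 2 top bins of the score, from 10 and 11 UMIs, against 5.86 CPM in low cells. IVL, involucrin of the cornified envelope, was at 4.49 CPM in high against 21.1 CPM in low HCC38-like cells. SLITRK6, AKR1C2 and the thyroid hormone deiodinase DIO2 were also lower, at ratios of 0.213, 0.183 and 0.275. MDA-MB-231-like cells had 275 such genes, 5 higher (1.82%) and 18 lower (6.55%), beside 2.48% and 0.822%, with RCSD1 at 28.4 CPM in high against 7.89 CPM in low cells and FLG at 19.5 CPM in high against 58.4 CPM in low cells. RCSD1, too, passed the filter only through cells above the low group. Hs578T-like cells had 373, of which 1 was higher (0.268%) and 15 lower (4.02%), beside 2.45% and 0.357%, with DEPTOR, an inhibitor of mTOR, at 8.53 CPM in high against 34.9 CPM in low cells. MDA-MB-436-like cells had 362, of which 1 was higher (0.276%), the homeobox gene TLX3 at 37.8 CPM in high against 17.9 CPM in low cells, and 4 lower (1.1%), beside 1.88% and 0.496%.

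The same filters, score and ranks were applied to the other 2 lines, which had no part in choosing the genes, though their cells were again picked by the 6 score genes. The MDA-MB-453-like cells had 103 of the 107 higher genes measured and all 103 at least 2-fold higher, with a median log2 ratio of 2.48, where 2.93% of measured genes passed that threshold. In BT-474-like cells 91 of 94 measured were at least 2-fold higher, with a median of 4.53 and 5.3% of all genes passing. The 3 that did not were BRD8, VANGL1 and SOGA1, at ratios of 1.90, 1.29 and 1.57. Without the 6 score genes, whose difference the choice of cells fixes, the counts were 97 of 97 in MDA-MB-453-like and 85 of 88 in BT-474-like cells. AURKA, which is not in the score, was at 458 CPM in high against 39.1 CPM in low MDA-MB-453-like cells and at 967 CPM in high against 52.4 CPM in low BT-474-like cells. Of 6 lower genes measured in each line, 5 were at least 2-fold lower in MDA-MB-453-like cells (0.288% of all genes), whereas in BT-474-like cells none was (0.374%) and CDC6, WDR76 and FAM111B were at least 2-fold higher. UNG was lower there as well, at 11.6 CPM in high against 23.2 CPM in low BT-474-like cells, a ratio of 0.499 (95% interval 0.416 to 0.595). It missed the 2-fold threshold only because that is set on CPM + 1, where its ratio was 0.52. CCNE2 and MCM6 were higher by less than 2-fold. In BT-474-like cells, CDC6 and WDR76 passed the filter of 10 CPM only through cells above the low group. CDC6 was the 1 that missed 2-fold in MDA-MB-453-like cells, at 14.6 CPM in high against 27.9 CPM in low cells. The median score of BT-474-like low cells was 0, and 29.1% of BT-474-like cells had no UMI of the 6 score genes, against between 1.38% and 4.1% in the 4 triple-negative lines. The part of this in the difference was not tested.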

How the data were processed

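Gene-level UMI counts were deposited as a sparse matrix (36601 genes and 12 oligos, 17605 barcodes); Cell Ranger 6.1.2 wrote it, per the file headers, and the build was GRCh38 (hg38), per the submitters' processing notes. Cell calling settings, use of strand and the match of oligo to line were not given in these sources. The barcode suffix gave the line, named from marker genes. The members, gene lists and rules were chosen with earlier results of these data known. Sums per line and group, CPM (mean of at least 10 in each line), log2 ratios with a pseudocount of 1 CPM and exact conditional binomial intervals at 95%, for counting error only, were computed with Python 3.11.15, numpy 2.4.6, scipy 1.17.1 and pandas 2.3.3, tested on simulated data. UMIs from free RNA in the levels of low cells were not estimated. Doublets of different lines were limited by the oligo share, and an alternative removed cells with transcripts of another line of the pool; doublets within a line were not called. Alternative scalings used factors from edgeR 4.0.16 and DESeq2 1.42.0. Promoters came from RefSeq (GRCh38.p14) and gene positions from GENCODE 29.

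Named genes were the 25 higher and up to 15 lower genes with the largest smallest change over the 4 lines, up to 6 per line and direction with the largest distance to the nearest other line, the score and marker genes, and 2 to 6 members of each list with the largest and smallest median ratio. Further genes in the text (among them E2F1, TYMS, H1FX, CDKN2D, the bin genes and those measured in 1 line alone), the E2F-type letters, the counts without the 6 score genes, the count of intervals beyond those of the other lines, and the removal of mixed cells in the 2 lines outside the choice of genes, which left their counts the same, were chosen after values were seen. Some genes that met these rules are not reported here.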

Additional observations from a re-analysis of the deposited data

Results flagged for a closer look

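Of the 7 genes lower in high cells of all 4 triple-negative lines, 6 were measured in BT-474-like cells. Of these, 3 moved the opposite way there by at least 2-fold, beside 5.3% of all measured genes at least 2-fold higher. CDC6 and WDR76 passed the filter of 10 CPM there only through cells above the low group. The log2 ratio of high over low BT-474-like cells was 1.95 for CDC6 (23.9 CPM in high against 5.46 CPM in low cells), 1.35 for WDR76 (10.4 CPM in high against 3.48 CPM in low cells) and 1.17 for FAM111B (32.0 CPM in high against 13.7 CPM in low cells). In the 4 triple-negative lines the same genes had log2 ratios between -4.08 and -1.36. The difference between the lines was not tested, since each is 1 culture.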

How the results depend on the processing

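The counts at the chosen settings were 107 higher and 7 lower in all 4 lines, 5 under the strict and 100 under the loose rule for 1 line. In that order they were 173, 34, 98 and 417 at 1.5-fold, 61, 2, 2 and 35 at 3-fold, and 54, 0, 0 and 18 with a minimum of 50 CPM. With no low filter, the strict and loose counts were 85 and 597. Taking the highest 5% of cells gave 11 lower, 9 strict and 159 loose genes, the lowest 25% as low cells gave 2, 12 and 206, and the highest 25% gave 3 strict genes. Low cells matched on total UMIs gave 12 lower and 3 strict genes. Leaving out 1 line at a time gave 107 to 132 higher genes and 8 to 11 lower genes, with 11 lower without HCC38-like or without Hs578T-like cells, the line count itself being smaller. All other alternatives stayed within 1.5 times, among them TMM (104 higher), DESeq2 size factors (110) and removal of mixed cells (107). The cause of these shifts was not tested.

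All 1338 single-gene values kept their direction, and 365 of them moved beyond the counting interval. The alternatives of 1.5-fold, 3-fold, no low filter and 50 CPM change only a threshold or filter. Single-gene values there repeat the main ones and could not move. The genes followed were score genes or were named for a change of at least 2-fold in these same cells. Their direction was thus largely fixed in advance. Of the strict genes, C21orf58 was under 2-fold in HCC38-like cells with the highest 25% (log2 ratio 0.97) and with CCNB1, CDC20 and PLK1 as the score (0.90), and CSF1 was so with matched UMIs (-0.92), that score (-0.99) and a pseudocount of 5 CPM (-0.78). No paired analysis was possible because no result comes from a test: high and low cells were chosen by the readout and were set side by side within each line, each 1 culture. Depth limits genes of few UMIs, such as CCNB3, with 32 in low cells.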
